A study of Rattus norvegicus with 16 samples.

Results

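The genes described here encode the enzymes that write and erase DNA methylation and histone marks, and the proteins that read or recruit them. They were named as 37 gene symbols and found by gene name in the table of isoforms. Of these, 36 had rows, with 53 of the 21698 isoforms and 36 of the 16579 gene symbols analysed. No row carried the name Hdac6, whose expression is not analysed here; its promoter window is among those counted below. There were 13 members with several isoforms and 23 with 1. The row named Kdm6a (ENSRNOT00000082648) lies on chromosome Y in the table and is typed as a processed transcript. The RefSeq gene table of GRCr8 places Kdm6a on X and gives Kdm6a as a synonym of Uty on Y. This row is therefore called the Y-linked Kdm6a row below. It is counted among the 36 by its name. No other row carried the name Kdm6a, so expression of the gene on X is not described here.

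RNA came from dorsal CA1 of male Sprague-Dawley rats at postnatal day 14. The kainate group (8 libraries) was given kainate, which activates glutamate receptors and sets off seizures, by a subcutaneous dose of 2 mg/kg on postnatal day 7, and the control group (8 libraries) saline on the same day. Per the labels, seizures after kainate were uniform and no rat died. In both groups CA1 was cut from 400 µm slices after 60 min of recovery, with CA3 removed before and the dentate gyrus and cortex still attached during it. The titles give each library its own animal number, and nothing else says how the animals were housed or matched, so the p-values measure the spread between these libraries.

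DNA methyltransferases add a methyl group to cytosine, mostly in CG dinucleotides. Dnmt1 copies the pattern at replication, and Dnmt3a and Dnmt3b set it anew. The Tet dioxygenases oxidise methylcytosine, the first step of its removal, and their product, hydroxymethylcytosine, is abundant in neurons. Acetyltransferases and deacetylases (Hdac genes and sirtuins) open and close chromatin, and methyltransferases such as Ezh2, Ehmt2 and Kmt2a mark histone H3 for repression or activation. In the hippocampus several of these enzymes are known for roles in memory and in the lasting response to activity.

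The promoter windows of the 3 Tet genes and of Sirt2 are shown because the Tet genes had the largest positive mean differences but for Kmt2a and Sirt2 the most negative one, and because CG dinucleotides, in capitals, are the letters that Dnmt and Tet enzymes act on. The windows are from RefSeq in GRCr8 and run 5′ to 3′ from 250 bases before to 50 after the gene start. Tet1 is at chr20:25766556-25766855 on the plus strand, Tet2 at chr2:224746137-224746436 on the minus strand, Tet3 at chr4:117525446-117525745 on the minus strand and Sirt2 at chr1:93181222-93181521 on the plus strand.
Tet1: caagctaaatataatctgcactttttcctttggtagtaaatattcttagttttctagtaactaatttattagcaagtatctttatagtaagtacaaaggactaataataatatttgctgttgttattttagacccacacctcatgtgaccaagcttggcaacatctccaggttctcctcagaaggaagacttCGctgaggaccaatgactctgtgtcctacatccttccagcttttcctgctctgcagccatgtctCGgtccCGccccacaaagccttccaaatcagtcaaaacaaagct
Tet2: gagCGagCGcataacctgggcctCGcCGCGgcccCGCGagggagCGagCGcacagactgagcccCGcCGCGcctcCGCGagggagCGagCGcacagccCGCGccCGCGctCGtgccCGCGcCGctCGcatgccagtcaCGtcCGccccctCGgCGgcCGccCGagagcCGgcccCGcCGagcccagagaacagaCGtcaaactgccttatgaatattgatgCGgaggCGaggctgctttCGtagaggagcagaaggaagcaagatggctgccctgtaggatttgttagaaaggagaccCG
Tet3: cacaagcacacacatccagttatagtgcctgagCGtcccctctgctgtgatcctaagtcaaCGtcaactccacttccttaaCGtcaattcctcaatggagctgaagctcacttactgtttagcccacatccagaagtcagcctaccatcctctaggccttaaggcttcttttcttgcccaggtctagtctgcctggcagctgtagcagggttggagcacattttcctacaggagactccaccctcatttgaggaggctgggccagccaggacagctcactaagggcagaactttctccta
Sirt2: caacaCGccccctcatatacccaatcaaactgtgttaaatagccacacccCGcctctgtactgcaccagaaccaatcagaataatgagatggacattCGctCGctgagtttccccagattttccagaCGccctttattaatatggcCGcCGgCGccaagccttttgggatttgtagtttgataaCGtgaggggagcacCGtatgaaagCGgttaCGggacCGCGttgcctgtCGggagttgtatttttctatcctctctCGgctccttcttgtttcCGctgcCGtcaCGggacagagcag
The Tet2 window holds 39 CG dinucleotides, against 3 in that of Tet1, 3 in that of Tet3 and 19 in that of Sirt2. Gene starts are as annotated, and that of Tet1 falls on an atg, so its window may not lie at the start of transcription. The counts describe these windows and do not rank the promoters in use in CA1. A window was found for 32 of the 37 symbols, and not for Dnmt3b, Hdac11, Ezh1, Kdm6a and Kmt2a. The 32 windows had a median of 25.5 CG dinucleotides, from 2 in Hdac9 to 48 in Crebbp, and the median over all 27457 windows of the same length was 7. At least 20 were found in 20 of the 32, and in 26.3% of all windows. At least 1 CG was present in all 32 and in 94.8% of all windows. The CREB site TGACGTCA, which reads the same on both strands, was in 0 of the 32 and in 1.91% of all windows.

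Values are on the authors' deposited log2 scale, on which weak isoforms are compressed, and a gene total is the log2 of the summed isoform values. Levels are not compared between genes, because transcript lengths are not in the files. In the authors' deposited table the mean normalized count of a member isoform ranged between 10.1 and 12452 with a median of 1218, against 509 over all isoforms. Read totals per library are unknown. CA1 markers were present, with summed levels of 16.39 to 16.61 in kainate and 16.40 to 16.65 in control libraries. Of the 7 measured, 4 had a higher and 3 a lower mean after kainate, and Wfs1 averaged 15.19 ± 0.15 in kainate and 15.09 ± 0.096 in control libraries (gene total ± SD, n = 8 each). Prox1 of dentate granule cells was also present (11.39 ± 0.25 in kainate and 11.16 ± 0.20 in control libraries). Libraries of replicates 1 to 4 stood apart from those of replicates 5 to 8 in both groups: the first principal component, with 45.3% of the variance, had scores of -23.2 to -4.31 in the first set and 5.88 to 17.4 in the second, with 4 libraries of each group in each set.

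Of the members, 23 had a higher mean and 13 a lower mean after kainate, and the median of the differences was 0.016 (log2). Over all gene totals the median was -0.0017 and 47.6% had a higher mean. With each library centred on its median, the members split into 20 higher and 16 lower. None passed: by limma 0 of 36 gene totals had an adjusted p under 0.05, as did 0 of all 16579 (0%), and 0 of 36 had an unadjusted p under 0.05 against 1.39% of all gene totals (0.464% higher after kainate and 0.923% lower). In no member did the kainate and control ranges stand apart, nor in any gene total of the table (0%). Differences lay between -0.076 for Sirt2 and 0.14 for Kmt2a, and 26 members differed by less than 0.05, about the size of the SE (median over members 0.045).

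The main fit keeps the gap between the 2 sets of replicates in its residual spread. With the replicate number as a block, limma again called 0 of 36 gene totals (0% of all), and 4 had an unadjusted p under 0.05. Those were Tet2, Tet3 and Hdac9, higher after kainate (4.06% of all gene totals), and Sirt2, lower (2.54% of all). The 4 make up 11.1% of the members, against 6.6% of all gene totals. With a term for the 2 sets in place of the block, the 4 were Tet1, Tet2, Tet3 and Hdac9 (11.1% against 5.08%). All were higher (3.25% of all gene totals were higher and 1.84% lower), and 0 passed after adjustment (0% of all). The sets were cut after the data were seen, so counts from fits with this term, here and below, are descriptive only.

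**Figure D1:**
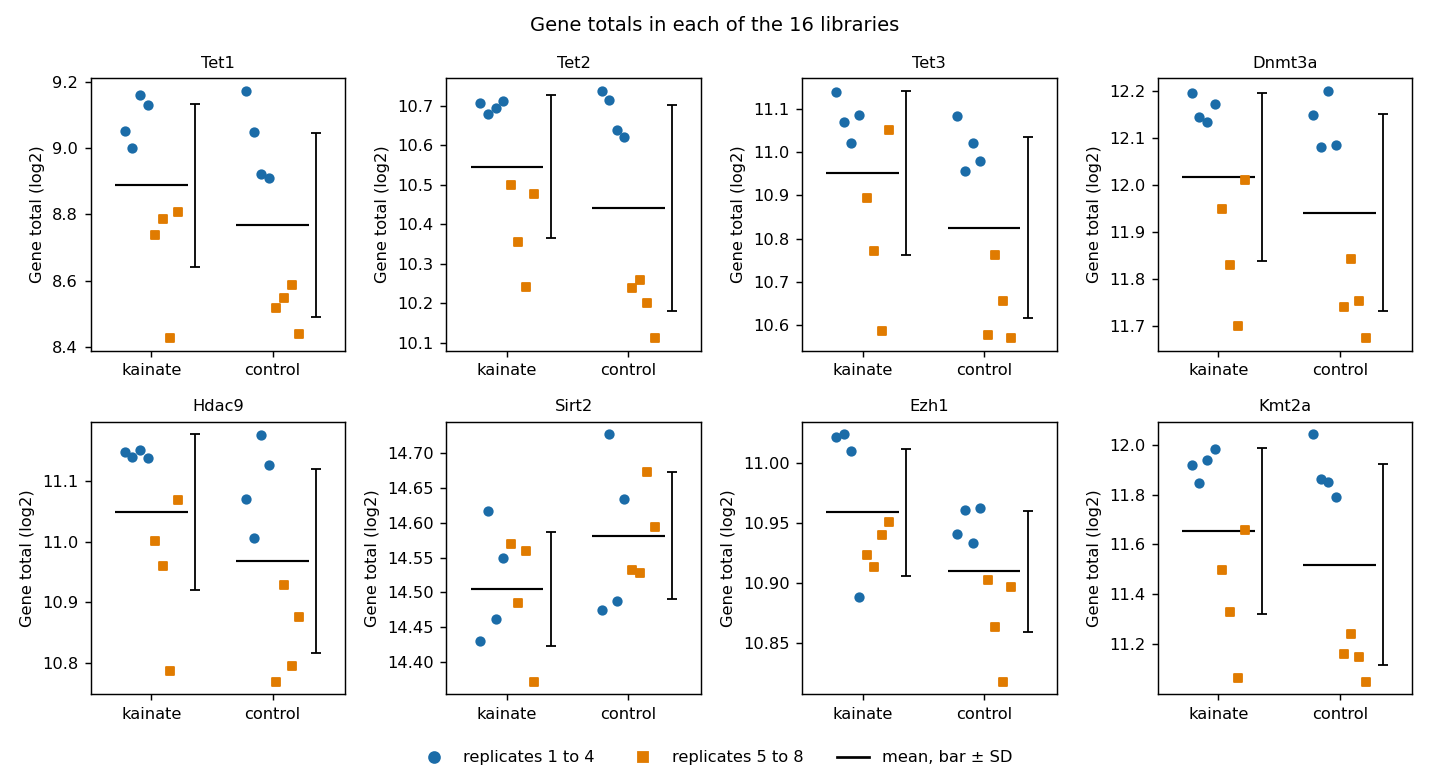
Gene totals (log2, as deposited; y axes do not start at 0) of 8 members in each library, kainate left and control right; circles are replicates 1 to 4, squares replicates 5 to 8, lines means and bars ± SD (n = 8). Kainate and control overlap in every panel. For Tet1, Tet2, Dnmt3a and Kmt2a all circles lie above all squares; Sirt2 shows no such gap.

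**Figure D2:**
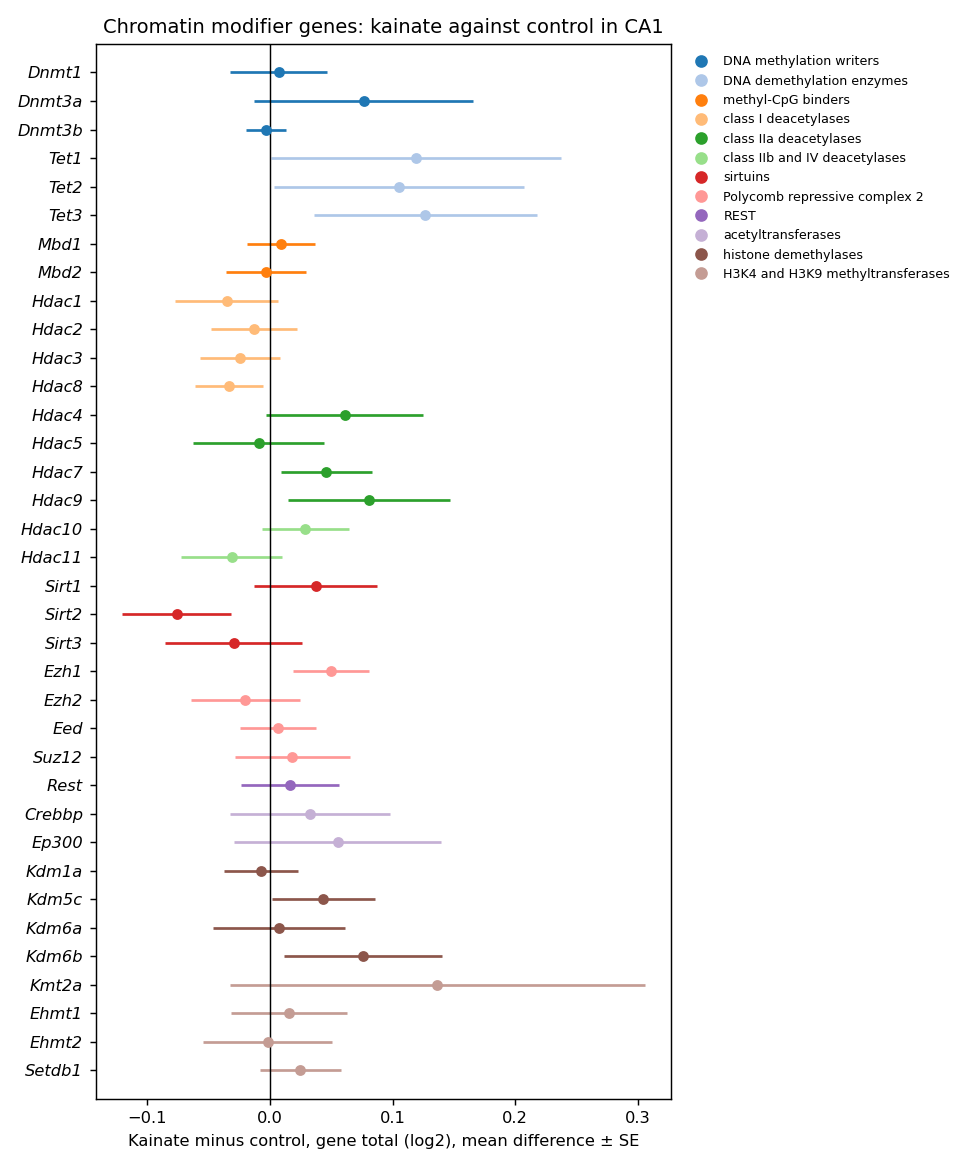
Kainate minus control of the gene total (log2, point ± SE, n = 8 per group) for the 36 members, coloured by role. The Tet genes and Kmt2a lie farthest to the right, between 0.11 and 0.14, and Sirt2 farthest to the left at -0.076.

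The writers of DNA methylation come first. Dnmt3a, the main de novo enzyme of neurons, had gene totals of 11.70, 12.07 and 12.20 (lowest, median, highest) in kainate libraries, against 11.67, 11.96 and 12.20 in control libraries. The 2 groups spanned nearly the same range, and the high libraries of both were replicates 1 to 4. The difference was 0.077 ± 0.089 (SE, n = 8 per group; limma adjusted p = 1.00). Dnmt1 differed by 0.0070 ± 0.039 and Dnmt3b by -0.0036 ± 0.016 (SE, n = 8 per group). The authors' deposited table gives the Dnmt3b isoforms mean normalized counts of 35.7 and 26.7.

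All 3 Tet genes had higher means after kainate, at 1.09 times control for Tet1, 1.08 for Tet2 and 1.09 for Tet3 on the deposited scale. The mean stayed higher in all 3 under each scaling and with each library, or each pair of libraries with the same number, left out. The size moved more: their median difference was 0.12 with all libraries and 0.072 to 0.18 with libraries left out. Without both libraries numbered 8 it was 0.076. Tet3 had gene totals of 10.59, 11.04 and 11.14 in kainate libraries, against 10.57, 10.86 and 11.08 in control libraries (lowest, median, highest). Tet2 had 10.24, 10.59 and 10.71 in kainate libraries, against 10.11, 10.44 and 10.74 in control libraries. Tet1 had 8.43, 8.90 and 9.16 in kainate libraries, against 8.44, 8.75 and 9.17 in control libraries. The groups overlapped over most of their range in each gene, and the kainate median was the higher.

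The differences were 0.13 ± 0.091 for Tet3, 0.11 ± 0.10 for Tet2 and 0.12 ± 0.12 for Tet1 (SE, n = 8 per group; limma adjusted p = 1.00 each). With the replicate block the SEs were 0.054, 0.043 and 0.059, and the unadjusted limma p-values 0.0377, 0.0303 and 0.0667. Among pairs of libraries with the same number, the kainate one was above the control one in 7 of 8 for Tet3, 6 of 8 for Tet2 and 5 of 8 for Tet1. Within replicates 1 to 4 the kainate differences were 0.069 for Tet3, 0.019 for Tet2 and 0.072 for Tet1, and within replicates 5 to 8 they were 0.18, 0.19 and 0.17 (n = 4 per group). The latter were uneven between libraries. For Tet3, kainate replicates 5 to 8 were at 10.89, 10.77, 10.59 and 11.05, and control replicates 5 to 8 at 10.58, 10.76, 10.66 and 10.57. In the authors' deposited table the ratio was 1.10 for Tet2 (p = 0.0369, adjusted p = 0.694) and 1.10 for Tet3 (p = 0.0412, adjusted p = 0.707). Markers of dentate granule cells differed in the same direction, with 8 of 8 higher after kainate, a median of 0.077 and summed levels of 13.11 to 13.63 in kainate libraries against 13.12 to 13.47 in control libraries. Their part in the Tet values was not tested. In such bulk samples more cells of a type and more RNA per cell cannot be told apart.

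The methyl-CpG binders, which read methylated DNA, came next. Mbd1 differed by 0.0091 ± 0.028 and Mbd2 by -0.0034 ± 0.032 (SE, n = 8 per group). Mbd1 gene totals were 10.46, 10.55 and 10.61 in kainate libraries, against 10.49, 10.53 and 10.61 in control libraries.

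Of the class I deacetylases, Hdac1, Hdac2 and Hdac3 are catalytic subunits of nuclear corepressor complexes. The mean was lower after kainate in 4 of 4 class I members, Hdac8 among them, and the median difference was -0.029. The mean was lower in 4 of 4 also with median-centred and quantile-normalized libraries, and in 3 of 4 in replicates 1 to 4 alone or without both libraries numbered 8. Hdac1 had gene totals of 10.49, 10.58 and 10.68 in kainate libraries, against 10.47, 10.62 and 10.72 in control libraries, a difference of -0.035 ± 0.042. Hdac8, on chromosome X, had 9.60, 9.66 and 9.71 in kainate libraries, against 9.65, 9.67 and 9.79 in control libraries, a difference of -0.034 ± 0.028. Hdac2, the form tied to memory in mice, differed by -0.013 ± 0.035 and Hdac3 by -0.024 ± 0.032 (SE, n = 8 per group). None of the 4 had a limma unadjusted p under 0.05, with or without the replicate block, and the groups overlapped in each.

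Class IIa deacetylases shuttle between nucleus and cytoplasm with calcium signals. Hdac9 had gene totals of 10.79, 11.10 and 11.15 in kainate libraries, against 10.77, 10.97 and 11.18 in control libraries. The groups overlapped and the low libraries of both were replicates 5 to 8. The difference was 0.081 ± 0.066 without the block and had an SE of 0.033 with it (limma unadjusted p = 0.237 and 0.0310). The authors' deposited table gives its main isoform (ENSRNOT00000005521) a ratio of 1.08 (p = 0.0306, adjusted p = 0.688). Hdac4 differed by 0.061 ± 0.064, Hdac7 by 0.046 ± 0.037 and Hdac5 by -0.0091 ± 0.053 (SE, n = 8 per group). Hdac7 had gene totals of 9.57, 9.65 and 9.81 in kainate libraries, against 9.50, 9.62 and 9.69 in control libraries, which overlapped. Of the remaining classes, Hdac10 had 9.60, 9.68 and 9.80 in kainate libraries, against 9.55, 9.66 and 9.74 in control libraries. Hdac11 had 12.43, 12.50 and 12.55 in kainate libraries, against 12.40, 12.53 and 12.66 in control libraries, a range that held the kainate one. Hdac10 differed by 0.029 ± 0.036 and Hdac11, the class IV enzyme, by -0.031 ± 0.041. Hdac10 was the higher in replicates 1 to 4 (0.070) and the lower in replicates 5 to 8 (-0.013), and Hdac11 went the other way (0.023 and -0.085).

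Sirtuins are deacetylases that depend on NAD. Sirt2, which is rich in myelin-forming oligodendrocytes, had gene totals of 14.37, 14.52 and 14.62 in kainate libraries, against 14.47, 14.56 and 14.73 in control libraries. The kainate library was below its control in 7 of 8 pairs, yet the groups overlapped over most of their range. The difference was -0.076 ± 0.045 (SE, n = 8 per group), or 0.949 times control, with a limma unadjusted p of 0.105 without the block and 0.0278 with it. It was -0.066 in replicates 1 to 4 and -0.086 in replicates 5 to 8. Both isoforms differed alike, by -0.075 ± 0.045 for ENSRNOT00000064153 and -0.076 ± 0.057 for ENSRNOT00000084839. In the authors' deposited table the first had a ratio of 0.933 (p = 0.0144, adjusted p = 0.608) and the second 0.934 (p = 0.0295, adjusted p = 0.682).

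Oligodendrocyte markers differed in the same direction as Sirt2. Their median difference was -0.12, with 8 of 8 below 0. Their summed level was 17.75 to 18.21 in kainate libraries against 17.87 to 18.30 in control libraries, and none was near the floor of the table (Mal, the lowest, averaged 10.55 in kainate and 10.65 in control libraries). Their part in the Sirt2 value was not tested. Sirt1, a nuclear sirtuin, differed by 0.037 ± 0.050 and was higher after kainate in 7 of 8 pairs, and Sirt3 of mitochondria differed by -0.030 ± 0.056 (SE, n = 8 per group).

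Polycomb repressive complex 2 methylates lysine 27 of histone H3. Ezh1, its catalytic subunit in cells that no longer divide, had gene totals of 10.89, 10.95 and 11.02 in kainate libraries, against 10.82, 10.92 and 10.96 in control libraries. Kainate was the higher in 7 of 8 pairs, with the group ranges shifted but overlapping. The difference was 0.050 ± 0.031 (SE, n = 8 per group; limma unadjusted p = 0.128, or 0.0810 with the replicate block). The authors' deposited table gives a ratio of 1.05 (p = 0.0490, adjusted p = 0.726). Ezh2, the subunit of dividing cells, differed by -0.020 ± 0.044, Eed by 0.0066 ± 0.031 and Suz12 by 0.018 ± 0.047. Over all members, kainate was the higher in at least 7 of 8 pairs for Tet3, Sirt1 and Ezh1 (3 of 36, against 4.55% of all gene totals) and in at most 1 for Sirt2 (1 of 36, against 5.53%).

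Rest silences neuronal genes outside neurons and is known to be induced by seizures in adult rodent hippocampus. Its gene total was 8.83, 8.91 and 8.998 in kainate libraries, against 8.79, 8.90 and 9.06 in control libraries. The kainate range lay inside the control range, and the difference was 0.016 ± 0.040 (SE, n = 8 per group). Of 18 measured Rest target genes, 12 had a higher and 6 a lower mean, and their median difference was 0.033. By limma 0 of the 18 passed with or without the block. At an unadjusted p under 0.05 there were 0 without it and 2 of 18 with it, both higher after kainate, where 6.6% of all gene totals were under it and 4.06% higher. Gria2, an AMPA receptor subunit, differed by 0.079 ± 0.070 and Celsr3, a cadherin, by 0.11 ± 0.095 (SE, n = 8 per group).

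The acetyltransferases Crebbp and Ep300 are coactivators of CREB, the factor that couples calcium to transcription. Ep300 had gene totals of 9.28, 9.61 and 9.70 in kainate libraries, against 9.24, 9.46 and 9.78 in control libraries, a difference of 0.055 ± 0.084. Crebbp differed by 0.033 ± 0.065 (SE, n = 8 per group). In replicates 1 to 4 both differences were slightly below 0 (-0.0070 for Crebbp and -0.012 for Ep300), and in replicates 5 to 8 both were above it (0.073 and 0.12).

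Among histone demethylases, Kdm6b removes the Polycomb mark and is induced by neuronal activity. Its gene totals were 10.98, 11.28 and 11.37 in kainate libraries, against 11.01, 11.13 and 11.36 in control libraries. The kainate median was the higher while the ends nearly met, and the difference was 0.076 ± 0.064 (SE, n = 8 per group; limma unadjusted p = 0.255, or 0.0880 with the block). Kdm5c of chromosome X, which erases methylation of lysine 4, differed by 0.043 ± 0.042. Kdm1a, the catalytic subunit of the CoREST complex, differed by -0.0074 ± 0.030, and the Y-linked Kdm6a row by 0.0072 ± 0.054 (SE, n = 8 per group).

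Kmt2a, which methylates lysine 4, had the largest SD of the 36 members in both groups. Its gene totals were 11.06, 11.75 and 11.98 in kainate libraries, against 11.05, 11.52 and 12.04 in control libraries. In both groups 4 libraries were high and 4 low, and the high ones were replicates 1 to 4. The difference was 0.14 ± 0.17 (SE, n = 8 per group), made up of 0.035 in replicates 1 to 4 and 0.24 in replicates 5 to 8. With libraries left out it was 0.069 to 0.22. The lysine 9 methyltransferases differed by 0.016 ± 0.048 (Ehmt1), -0.0020 ± 0.053 (Ehmt2) and 0.025 ± 0.033 (Setdb1).

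**Figure D3:**
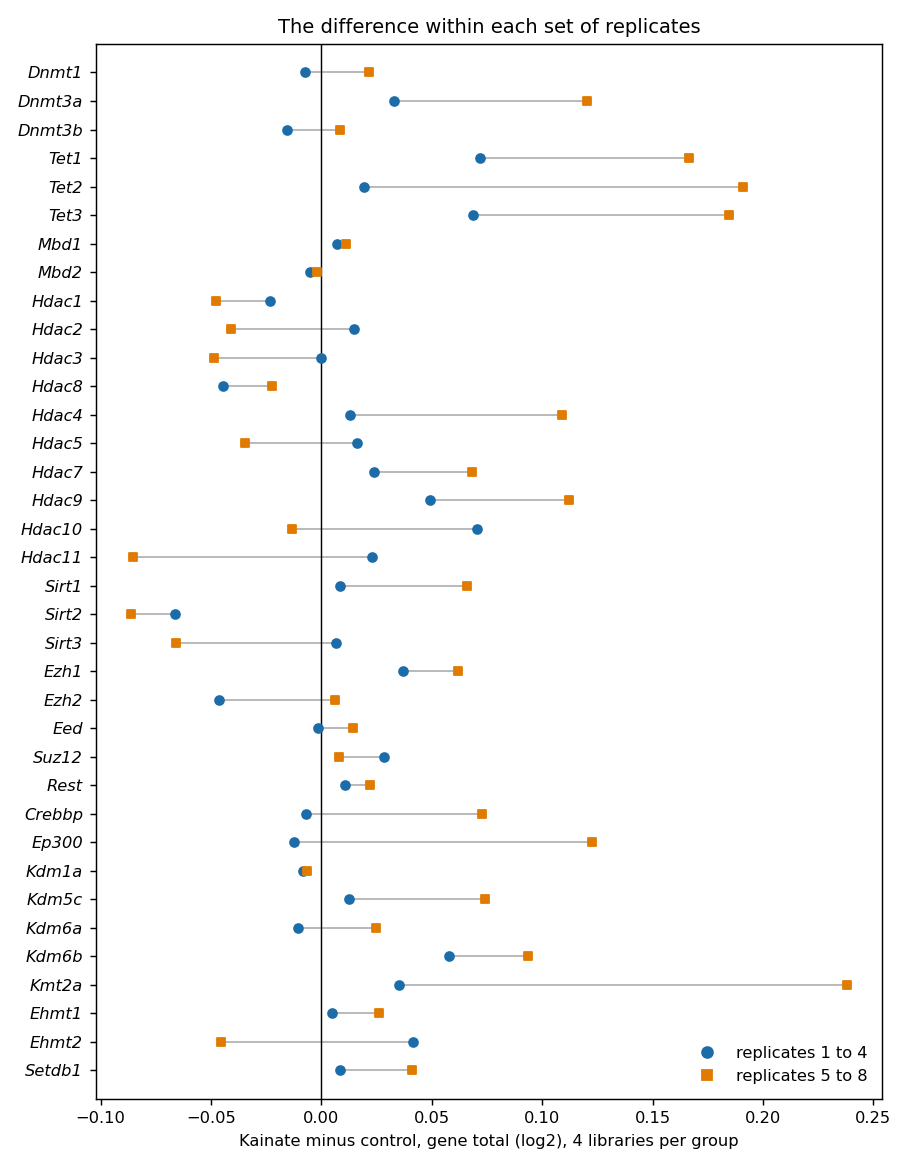
Kainate minus control of the gene total (log2) for each of the 36 members within replicates 1 to 4 (circles) and within replicates 5 to 8 (squares), 4 libraries per group each; points carry no error bar. The sign is the same in both sets for 23 members; Kmt2a and the Tet genes reach 0.17 to 0.24 in replicates 5 to 8 and at most 0.072 in replicates 1 to 4.

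The gap between the sets of replicates was larger than that between kainate and control in 31 of 36 members. Taken without sign, the gap between the sets had a median of 0.11 over members and 0.069 over all gene totals, against 0.030 and 0.021 between kainate and control. The ranges of the sets did not overlap in 8 of 36 members, against 10.7% of all gene totals. Replicates 1 to 4 were all above replicates 5 to 8 for Dnmt3a, Tet1, Tet2, Sirt1, Kmt2a and Ehmt1 (4.89% of all gene totals), and all below for Hdac11 and Sirt3 (5.8%). Kmt2a had 11.79 to 12.04 in replicates 1 to 4 and 11.05 to 11.66 in replicates 5 to 8. Sirt3 had 10.94 to 11.003 in replicates 1 to 4 and 11.08 to 11.26 in replicates 5 to 8. The cut between the sets was made after the data were seen, so these counts describe it and are not tested.

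Isoform by isoform, limma called 0 of 53 member isoforms, with or without the replicate block (0% of all 21698 in both fits). An unadjusted p under 0.05 was found for 0 of 53 without the block (1.5% of all isoforms, 0.654% higher after kainate and 0.843% lower) and for 5 of 53 with it (6.13%). Tet2, Tet3 and Hdac9 were higher (4.03% of all isoforms), and Sirt2 ENSRNOT00000064153 and Ehmt2 ENSRNOT00000085701 lower (2.1%). With the term for the sets of replicates there were 3 of 53, the Tet genes (4.81% of all isoforms, 3.21% higher and 1.6% lower). The authors' deposited table gives 7 of 53 member isoforms a p under 0.05, 4 higher and 3 lower, against 5.66% of all isoforms (3.9% higher and 1.76% lower). There, 0 of 53 had an adjusted p under 0.05 (0.0323% of all), 8 had none, and the smallest was 0.608. Of the 7, isoform ENSRNOT00000085701 of Ehmt2 has not yet been described. It had values of 9.71, 9.91 and 10.42 in kainate libraries, against 9.84, 10.01 and 10.53 in control libraries. The groups overlapped and replicate 2 was the highest in both. The difference was -0.10 ± 0.10 (SE, n = 8 per group; limma unadjusted p = 0.321, or 0.0385 with the block). In the authors' deposited table its ratio was 0.912 (p = 0.0364, adjusted p = 0.692).

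Isoform usage could be compared in 13 members. The shares below are of deposited values, which follow reads rather than molecules and are compressed for weak isoforms. Shares of weak isoforms, and their differences between libraries, are therefore approximate. All shares rest on how reads were divided between overlapping isoforms. By limma's diffSplice 0 of 13 passed, with 0 of all 3761 genes (0%), and 0 of 13 had an unadjusted p under 0.05 against 1.94% of all. With the replicate block 0 of 13 passed (0% of all) and 0 had an unadjusted p under 0.05 (6.06% of all), as with the term for the sets of replicates (4.57%).

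Ehmt2, which pairs with Ehmt1 in the lysine 9 enzyme G9a/GLP, had 4 isoforms. Isoform ENSRNOT00000081456 took 56.2% ± 9.1 of the total in kainate and 55.8% ± 8.1 in control libraries, and ENSRNOT00000047370 took 34.2% ± 9.6 and 33.9% ± 9.6 (SD, n = 8 each). The group means were within 0.41 percentage points of each other for both. Between the sets of replicates the second isoform ran from 16.2% to 34.9% in replicates 1 to 4 and from 35.6% to 44.1% in replicates 5 to 8, with no overlap.

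Dnmt1 divided into 72.8% ± 3.2 and 27.2% ± 3.2 in kainate libraries, against 72.5% ± 5.2 and 27.5% ± 5.2 in control libraries, for ENSRNOT00000064932 and ENSRNOT00000067325 (SD, n = 8 each). The first took 63.2% to 72.1% in replicates 1 to 4 and 73.1% to 79.3% in replicates 5 to 8. Kdm5c had a leading isoform, ENSRNOT00000077528, with 56.4% ± 2.2 in kainate and 56.8% ± 1.9 in control libraries, and again the sets of replicates did not overlap (52.9% to 56.0% and 57.6% to 59.7%). Sirt2 was split almost evenly, with 52.0% ± 1.5 for ENSRNOT00000064153 in kainate and 52.0% ± 2.3 in control libraries. The main isoform of Ehmt1 took 75.9% in kainate and 76.2% in control libraries, and that of Dnmt3b 56.8% and 57.0%. In Hdac3, Rest and Suz12 the mean share was 92.4% to 95.2% in kainate and 92.6% to 95.2% in control libraries. In Dnmt3a, Hdac9, Kdm1a and Setdb1 the mean share of the main isoform was 97.3% or more in kainate and in control libraries.

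**Figure D4:**
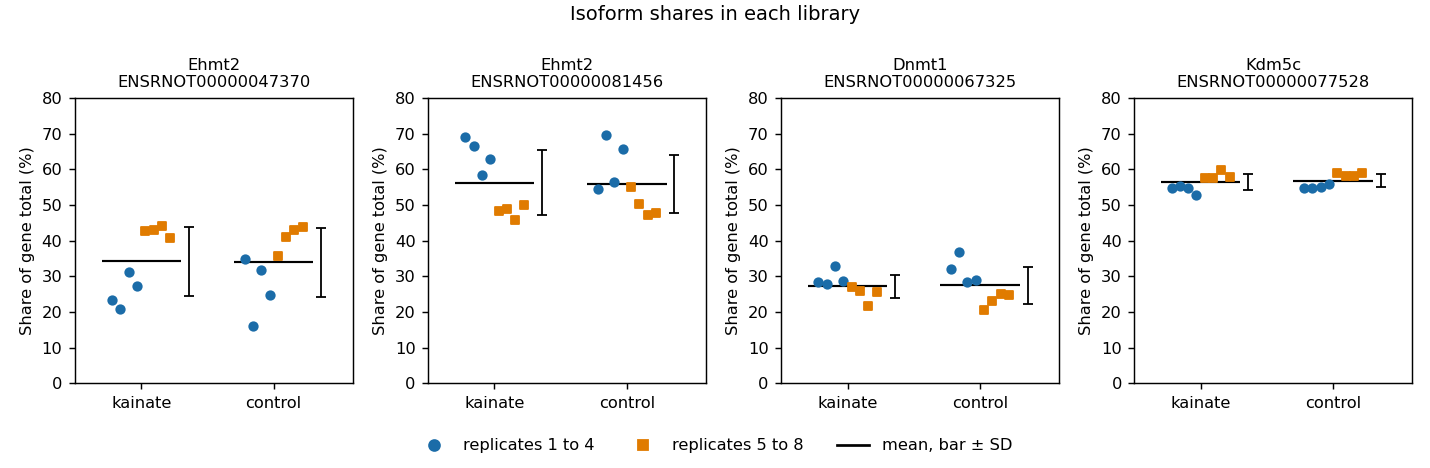
Share of the gene total (%) taken by 4 isoforms of Ehmt2, Dnmt1 and Kdm5c in each library, kainate left and control right; circles are replicates 1 to 4, squares replicates 5 to 8, lines means and bars ± SD (n = 8). Group means nearly coincide in each panel, while circles and squares lie apart; they touch only for Ehmt2 ENSRNOT00000081456.

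Other genes of the same machinery gave like values. Of 123 further chromatin genes with rows, 76 had a higher and 47 a lower mean after kainate, and the median difference was 0.015. By limma 0 of 123 passed and 0 had an unadjusted p under 0.05. The block left 0 of 123 past the adjusted threshold and 7 past the unadjusted one, all 7 higher. In the same fit 6.6% of all gene totals were past it, 4.06% higher and 2.54% lower. Histone demethylases were higher in 14 of 17, with a median of 0.039. Phf8, which erases repressive methylation and lies on X, differed by 0.070 ± 0.053, and Kdm2a by 0.064 ± 0.050 (SE, n = 8 per group). Histone methyltransferases were higher in 20 of 31, with a median of 0.024, and their 2 smallest p-values were those of Setd1b (0.082 ± 0.070) and Prdm2 (0.053 ± 0.043).

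Other DNA methylation genes were higher in 8 of 20, with a median of -0.0083. Their smallest p-value belonged to Zbtb33, which encodes the methyl-DNA binder Kaiso. Its gene total averaged 5.03 ± 0.37 in kainate and 4.76 ± 0.065 in control libraries (SD, n = 8 each), a difference of 0.27 ± 0.13 (SE). The level is low, where values are compressed, and the SD was much the larger in kainate libraries. The limma unadjusted p was 0.0517 without the block and 0.04996 with it (adjusted p = 0.751 with the block). Kainate was the higher in 7 of 8 pairs. Whether a few kainate libraries carry the difference was not tested. Deacetylase partners and further sirtuins were higher in 15 of 24, with a median of 0.0083. The 2 smallest p-values were those of Gatad2b of the NuRD complex (0.067 ± 0.057) and the corepressor Ncor1 (0.061 ± 0.061). Acetyltransferases were higher in 6 of 11, with a median of 0.0049, and the smallest p-values there were those of Kat5 (-0.054 ± 0.038) and Clock (0.073 ± 0.063). Polycomb genes were higher in 13 of 20, with a median of 0.011. The genes with the smallest p-values both had lower means, Ring1 (-0.043 ± 0.043) and Phf19 (-0.024 ± 0.026).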

How the data were processed

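The authors deposited, for each of 16 libraries and 21698 isoforms, log2 values with a floor per isoform, as a regularized logarithm gives. The sources used here name no transform, aligner, build or annotation. Per the submitters' processing notes, tools included RSEM, DESeq2, Trim Galore, SAMtools and GATK. Per the file headers, the same table holds the authors' mean normalized count (a signal over all animals), their DESeq2 log2 fold change with its score, p-value and adjusted p-value, and a ratio. Further deposited tables give 7 isoforms and enriched terms with p-values and scores, and these were not used.

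Here limma 3.58.1 in R 4.3.3 (mean-variance trend, robust) was fitted to all isoforms and to gene totals as deposited, with no added constant, and diffSplice (Simes) to 3761 genes. Tests were two-sided, with Benjamini-Hochberg adjustment over the whole table at a threshold of 0.05. Simulated data, with every library drawn independently, were used to check the isoform, gene total and usage fits without the block. Fits with the block or with the term for the sets of replicates were not checked in this way. A date stood in place of the name for 51 isoforms, left out of gene totals. Columns gave log2 values, not counts, so no count test was run; depth is unknown.

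Same-numbered libraries deviated together in all 8 pairs (r 0.127 to 0.781 across isoforms, limit 0.1), so the numbers were taken as a block in an alternative fit. The labels do not say that the animals were matched. Libraries of the same set of replicates also share the gap between the sets, so r cannot tell matched numbers from a shared set. Fits with the block and counts of pairs carry that limit. Members and lists were chosen with earlier results of these data known. Ranges and tests are given for the smallest p and the largest difference in each role group, for isoforms with an unadjusted p under 0.05 in the fit with or without the block or in the authors' table, and from each other list for the 2 smallest p; a gene named by this rule is not reported here. Tet1, and the isoforms compared between sets of replicates, were added after their values were seen.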

Additional observations from a re-analysis of the deposited data

Results flagged for a closer look

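Among 132 groups of 8 libraries (gene totals, and isoforms of members with several), 8 held a library whose gap to its neighbour was over 0.526 of the group's range. About 1 in 20 groups is picked out in this way by chance. Of the gene totals, Mbd2 was low in kainate replicate 8 (10.28, next 10.40) and Ehmt1 high in control replicate 2 (11.72, next 11.56). Of the isoforms, control replicate 2 was also high in Ehmt1 ENSRNOT00000086843 (11.39, next 11.18) and Kdm5c ENSRNOT00000082725 (8.71, next 8.40). Kainate replicate 2 was high in Dnmt3b ENSRNOT00000090321 (4.79, next 4.74) and Hdac3 ENSRNOT00000078667 (7.95, next 7.83), and low in Suz12 ENSRNOT00000085914 (5.17, next 5.31). Kainate replicate 4 was high in Dnmt3b ENSRNOT00000015482 (5.20, next 5.13).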

How the results depend on the processing

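Adjusted calls of isoforms and gene totals stayed at 0 under every alternative. Isoform usage called 3 genes in replicates 5 to 8 alone, and 0 to 1 with libraries left out (1 without control replicate 1), none of them members. Counts of members with an unadjusted p under 0.05 moved with the fit, from 0 without the replicate block. Isoforms gave 5 of 53 with the replicate block (6.13% of all isoforms) and 3 with a term for the 2 sets of replicates (4.81%). Gene totals gave 4 of 36 in each of these fits (6.6% and 5.08% of all gene totals). In replicates 5 to 8 alone there were 2 isoforms, 3 gene totals and, by usage, 1 gene, Ehmt2. With libraries left out, gene totals gave 0 to 1 (Tet3 without kainate replicate 7). No share over all features is given for replicates 5 to 8 alone or with libraries left out. Those counts are therefore not read as a result about the members. The block changed no adjusted call.

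The median over members, 0.016, was 0.0074 to 0.031 with libraries left out, 0.0083 with median-centred and 0.0082 with quantile-normalized libraries. Over 22 single features and 722 alternative values, 21 had the other sign, in 6 features. They were Hdac10 in replicates 5 to 8 (-0.013), and Hdac11 (0.023), Ep300 (-0.012) and Ehmt2 (0.041) in replicates 1 to 4. Ehmt2 was also at 0.019 as a mean of isoform log2 values. With libraries left out, the ranges were -0.00078 to 0.027 for Mbd1, -0.0021 to 0.042 for Hdac10, -0.0026 to 0.049 for Rest and -0.028 to 0.022 for Ehmt2. The smallest adjusted p of a named feature under any setting was 0.723. The cause was not tested.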

Other observations

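Some isoforms stood apart in a few libraries, and were picked out after their values were seen. Kdm1a isoform ENSRNOT00000080881 was at 6.63 to 7.10 in 4 libraries, kainate replicates 3 and 4 and control replicates 1 and 4, and at 5.38 to 5.46 in the other 12. Rest isoform ENSRNOT00000002837 was highest in replicate 2 of both groups, at 5.49 in the kainate and 5.64 in the control library, with the other 14 between 4.80 and 5.29. Ehmt2 isoform ENSRNOT00000090125 was at 4.40 in kainate replicate 5 and 4.35 in kainate replicate 6, against 3.77 to 3.78 in the other 14 libraries. It is a weak isoform, with a mean normalized count of 19.5 and no adjusted p in the authors' deposited table. Ehmt2 isoform ENSRNOT00000085701 was highest in replicate 2 of both groups, at 10.42 in the kainate and 10.53 in the control library, with the other 14 between 9.71 and 10.18.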
